A study of Mus musculus with 4 samples.

Results

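The plasminogen activator system was followed in mammary fibroblasts through 4 genes: the inhibitor Serpinb2, the activators Plat and Plau, and the receptor Plaur. A probe set of the array was taken when the platform annotation gave it exactly 1 gene symbol and that symbol was one of the 4. This yielded 5 of the 20393 single-symbol probe sets of a table of 22690: 1 each for Serpinb2, Plat and Plaur, and 2 for Plau. Of 12394 genes measured this way, these are 4.

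Each of the 4 groups was measured on 1 Affymetrix array, with RNA of fibroblasts cultured from mammary glands of FVB/N mice aged 9 weeks. All 4 genotypes carried Ets2db/loxP, that is, 1 conventional Ets2 knockout allele that targets the DNA-binding domain and 1 conditional allele. The normal Ets2-present group had this genotype alone (Ets2db/loxP), the normal Ets2-null group also carried Fsp-cre, the PyMT Ets2-present group also carried PyMT, and the PyMT Ets2-null group carried PyMT and Fsp-cre. Fsp-cre is a Cre recombinase driven by the promoter of fibroblast specific protein 1, and PyMT is the polyoma middle T oncogene, expressed in the mammary epithelium. The "Ets2-present" cells thus kept 1 intact copy, and an effect of Fsp-cre cannot be told apart from one of Ets2 loss. The cells were female, of second passage; whether animals were pooled was not given in the sources used here.

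Plasmin, a broad protease, is released from plasminogen by tissue-type plasminogen activator (Plat) or by urokinase (Plau). Urokinase works largely at the cell surface, held by its receptor, uPAR (Plaur), a small membrane-anchored protein of the Ly6 family. Plasmin breaks down fibrin and matrix, activates pro-metalloproteinases and releases growth factors. Serpinb2, also named plasminogen activator inhibitor type 2, blocks both activators, although most of the protein stays inside the cell. In mammary stroma the system is known for tissue remodelling, wound repair and invasion.

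The sequences before the transcription starts of Serpinb2 and Plaur are shown because the promoter reference used here held windows for these 2 of the 4 genes. Both come from RefSeq (build GRCm38.p6). Capitals mark the AP-1 motif TGANTCA, the TATA motif TATAAA and the ETS core GGAA, searched on both strands (GGAA on the other strand reads TTCC), with no overlap between motifs in these windows. The Serpinb2 window is chr1:107511173-107511422, plus strand, the 250 bases before the more upstream of 2 listed starts. The Plaur window is chr7:24462233-24462482, plus strand, the 250 bases before its listed start. The RefSeq entries of both genes begin further upstream than these windows, so the windows precede the listed starts only.
Serpinb2: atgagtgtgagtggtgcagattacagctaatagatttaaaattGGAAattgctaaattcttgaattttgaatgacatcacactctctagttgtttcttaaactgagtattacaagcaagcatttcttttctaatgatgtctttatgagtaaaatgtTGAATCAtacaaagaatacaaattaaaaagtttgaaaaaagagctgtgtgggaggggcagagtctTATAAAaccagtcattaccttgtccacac
Plaur: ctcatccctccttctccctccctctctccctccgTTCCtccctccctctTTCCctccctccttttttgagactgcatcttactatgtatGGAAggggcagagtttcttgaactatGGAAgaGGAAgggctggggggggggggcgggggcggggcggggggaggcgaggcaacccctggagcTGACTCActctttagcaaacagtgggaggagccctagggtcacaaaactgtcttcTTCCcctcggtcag

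Serpinb2 held 1 AP-1 match, beginning at -94 from the start, 1 TATA match at -29 and 1 GGAA at -207, all counted from the upstream start. Counted from the second listed start, whose window overlaps this one, there were 1 AP-1 match (-181), 1 TATA match (-116) and 3 GGAA matches. Plaur held 1 AP-1 match at -69, 6 GGAA matches and 0 TATA matches. Of 32851 listed mouse promoter windows of this length, 6.75% held TGANTCA, 12.4% TATAAA and 93.4% GGAA, so GGAA alone sets neither window apart. The longer ETS form CGGAAG, which 13.6% of windows held, had 0 matches in both. These are matches of letters and not measured binding.

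Values are log2 levels, and differences are between 2 arrays, so they have no replicate error and no p-value. A level under 4.63, the 40th percentile of all values in the table, is called low here, and a gene was kept when at least 1 of its 4 arrays reached that level. This left 8687 genes, among them Serpinb2, Plat and Plaur but not Plau. Serpinb2 passed through a single array, the one in which it was high. As a rough guide to measurement spread, 2 probe sets of the same gene disagreed with an SD of 0.48 in the Ets2 difference in normal fibroblasts and 0.68 in PyMT fibroblasts, and of 0.51 and 0.70 in the PyMT difference with and without Ets2 (3378 genes). This spread lies within arrays and leaves out the variation between mice and cultures. The 4 arrays had medians from 5.63 to 5.74 and correlated at 0.959 to 0.985. The 10 fibroblast markers were above the low level in every array. The Ets2 probe set read 11.86 in the normal array labelled Ets2-present and 11.89 in that labelled null, and 11.21 and 11.22 in the PyMT arrays. It does not check the deletion, since where it lies with respect to the removed exons is unknown. The study itself reported loss of ETS2 protein by Western blot, and of phospho-Ets2 staining, in fibroblasts of PyMT mice with Fsp-cre.

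Serpinb2 was high in the PyMT Ets2-present array and low in the rest. Its log2 level was 3.81 with and 4.10 without Ets2 in normal fibroblasts, and 8.88 with and 3.86 without it in PyMT fibroblasts. The 3 low arrays lay within 0.29 of each other, under the 4.63 mark and in no order that can be read, and the high one stood 4.77 above the nearest of them. With the oncogene, Ets2-present fibroblasts were 5.06 higher on the log2 scale. Without Ets2, PyMT fibroblasts were 5.01 lower (log2 difference -5.01). Each of these sets the high array against one under the low level, so neither is ranked among genes. The study picked Serpinb2 for its gene list from these same arrays, so its size here is no separate evidence. These 2 differences share the PyMT Ets2-present array and so are not separate observations of it. With the low levels raised to 4.63, both sizes were 4.24, or 18.9-fold. In the comparisons that leave that array out, Serpinb2 differed little: 0.29 for Ets2-null minus Ets2-present in normal fibroblasts and -0.24 for PyMT minus normal in Ets2-null fibroblasts, each between values near background. Macrophage markers were also highest in the PyMT Ets2-present array for 10 of 14 kept genes (71.4%, against 22.8% of all kept genes). Of these 14, 13 were lower without Ets2 in PyMT fibroblasts. Among them, Adgre1 and Mrc1 passed the filter only through the PyMT Ets2-present array. The 4 markers low in all arrays were highest in the PyMT Ets2-null array. The part of macrophage RNA in this result was not tested.

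**Figure D1:**
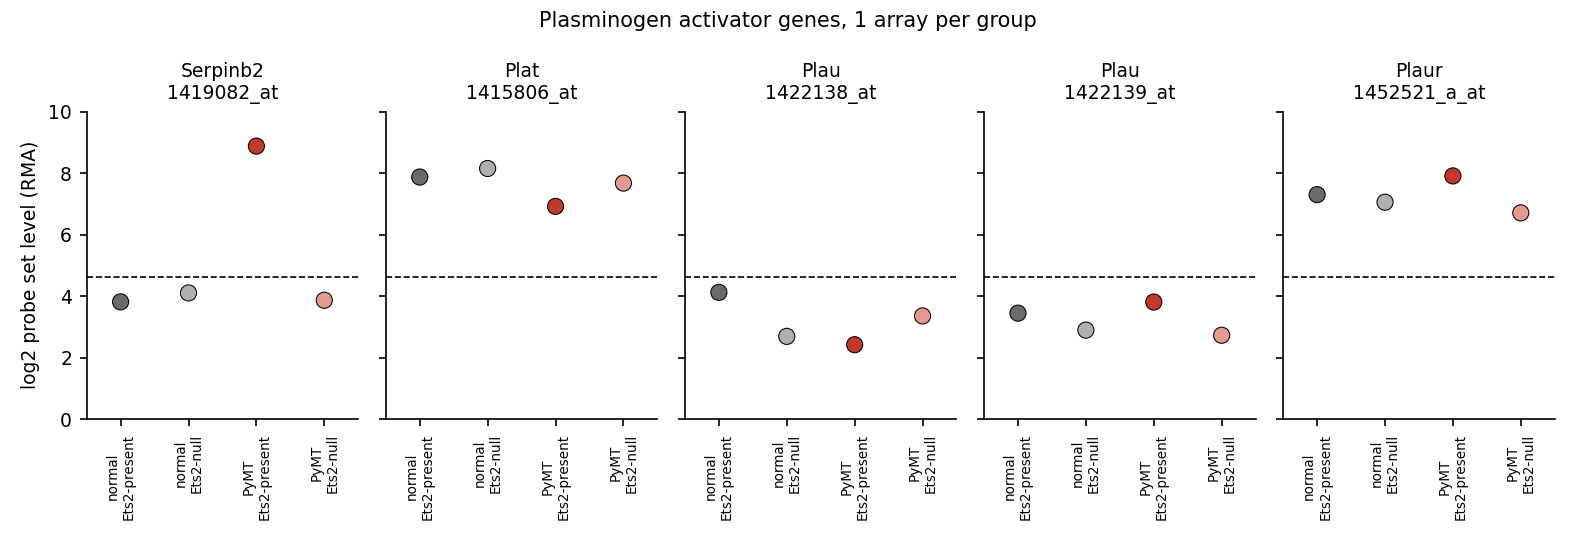
Log2 level of each probe set of Serpinb2, Plat, Plau and Plaur (vertical) in the 4 arrays (horizontal), 1 point per array and no error bars, since each group has 1 array. The dashed line is the low level of 4.63; Serpinb2 is above it in 1 array (8.88), Plat and Plaur in all, and both Plau probe sets in none.

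Plat, the tissue-type activator, had its lowest level where Serpinb2 was highest. It read 7.87 with and 8.15 without Ets2 in normal fibroblasts, and 6.92 with and 7.67 without it in PyMT fibroblasts. All 4 levels were well above the low level. From the top, the order was normal Ets2-null, normal Ets2-present, PyMT Ets2-null and PyMT Ets2-present, with gaps of 0.28, 0.20 and 0.76. The first 2 gaps were smaller than the disagreement between probe sets and the last was larger. Ets2-present fibroblasts with the oncogene were thus 0.95 lower than normal ones (1.94-fold), just short of 2-fold, and PyMT fibroblasts without Ets2 were 0.76 higher than those with it (1.69-fold). The Ets2 difference in normal fibroblasts was 0.28, and the PyMT difference without Ets2 was -0.47.

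Plaur, the urokinase receptor, shared the direction of Serpinb2 in the 2 comparisons that use the PyMT Ets2-present array, at a much smaller size. Its level was 7.30 with and 7.05 without Ets2 in normal fibroblasts, and 7.91 with and 6.71 without it in PyMT fibroblasts. The PyMT Ets2-present array was again the highest, by 0.61, and the PyMT Ets2-null array the lowest. Without Ets2, Plaur was 2.30-fold lower in PyMT fibroblasts (log2 difference -1.20), a size that 5.24% of kept genes went below. In normal fibroblasts the same difference was -0.25, less than the spread between probe sets. The oncogene went with a 0.61 higher level where Ets2 was present and a 0.35 lower one where it was not (-0.35). Among all kept genes 22.8% had their highest level in the PyMT Ets2-present array, so for a single gene that position is common.

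Plau, urokinase itself, was low in all 4 arrays by both of its probe sets. The probe set 1422138_at read 4.12 with and 2.69 without Ets2 in normal fibroblasts, and 2.42 with and 3.35 without it in PyMT fibroblasts. The probe set 1422139_at, made to the same transcript accession, read 3.44, 2.89, 3.81 and 2.73 in that order. Their orders conflict: PyMT Ets2-present was the lowest array by the first and the highest by the second. The differences were -1.43 and -0.55 for Ets2 loss in normal fibroblasts and 0.94 and -1.08 for Ets2 loss in PyMT fibroblasts. For PyMT minus normal they were -1.70 and 0.36 with Ets2, and 0.66 and -0.17 without it. No direction is read from levels this low, and a low array signal does not show that the gene is off.

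**Figure D2:**
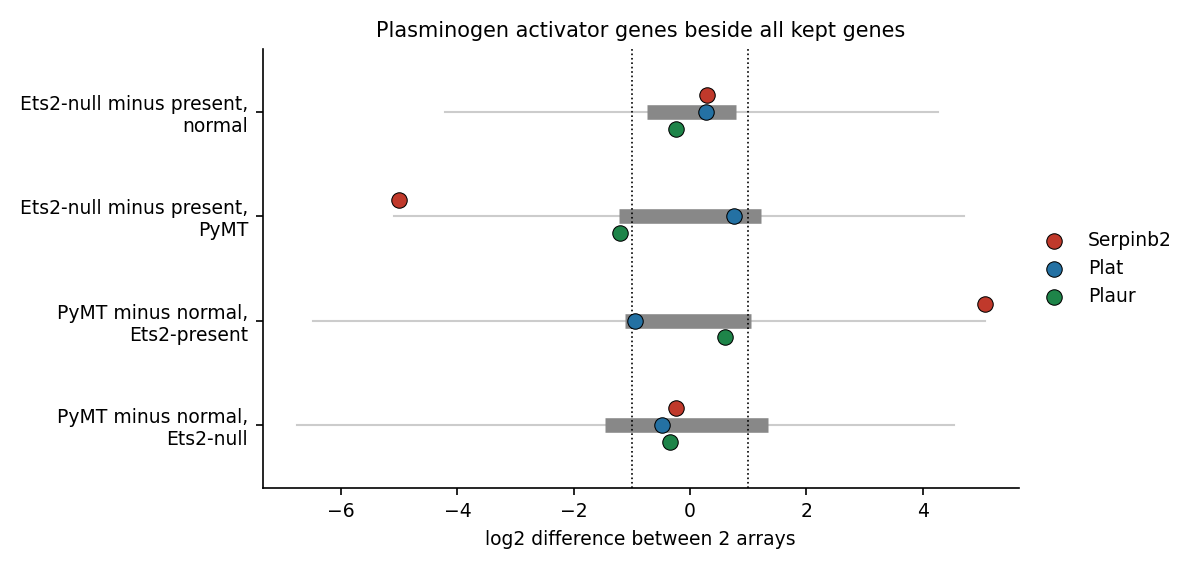
Log2 difference between 2 arrays (horizontal) for Serpinb2, Plat and Plaur in the 4 comparisons (vertical), with points offset slightly for legibility. Thick grey bars span the 5th to 95th percentile of the 8687 kept genes, thin lines their full range, and dotted lines mark 2-fold. Serpinb2 was kept only through the PyMT Ets2-present array. Its place beside the bar is therefore not read in the 2 comparisons that use that array.

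Counted at 2-fold, 2 of the 3 kept members (Serpinb2 and Plaur) were lower and 0 higher in PyMT fibroblasts without Ets2, where 7.77% of all kept genes were lower and 7.64% higher. With the oncogene and Ets2 present, 1 of 3 (Serpinb2) was higher and 0 lower, against 5.42% and 6.2% of all kept genes. Loss of Ets2 in normal fibroblasts had 0 of 3 in each direction, against 2.41% lower and 3.02% higher. PyMT minus normal in Ets2-null fibroblasts also had 0 of 3 in each direction, against 11.2% lower and 9.69% higher. The Ets2 difference of PyMT fibroblasts minus that of normal ones was -5.30 for Serpinb2, -0.96 for Plaur and 0.48 for Plat, and 1 of 3 was then at least 2-fold lower, against 11.2% lower and 10.2% higher of all kept genes. With 3 members these shares are counts, not evidence about the system as a whole. Serpinb2 was kept only through the PyMT Ets2-present array, so the counts that use that array were partly set by the filter.

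The genes with the 4-array profile nearest to each member were found by the Euclidean distance between log2 levels, each centred on the gene's own mean of the 4 arrays. For Serpinb2 they were the cytokine Tslp (0.49), the chemokine receptor Cxcr4 (1.35), the collagenase Mmp13 (1.38), the stromelysin Mmp10 (1.60) and Lypd1, another protein of the Ly6 family (1.63). Tslp was the closest, with levels of 4.10 with and 3.75 without Ets2 in normal fibroblasts, and 8.70 with and 3.61 without it in PyMT fibroblasts. Like Serpinb2, Tslp was kept only through the PyMT Ets2-present array, so their likeness rests on 1 high array and low levels in the rest. Plat was nearest to Sema4b (0.02), Btg1 (0.06), Isoc1 (0.07), Tpst1 (0.11) and Zfp36l1 (0.12). Plaur was nearest to the kinase Map4k5 (0.06), Chst11 (0.09), the kinase Eef2k (0.09), Cemip2 (0.09) and Cd99 (0.14). The distance grows with the range of a profile, which was 5.06 for Serpinb2, 1.23 for Plat and 1.20 for Plaur, so it is not compared between members. A likeness over 4 arrays describes these arrays only.

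**Figure D3:**
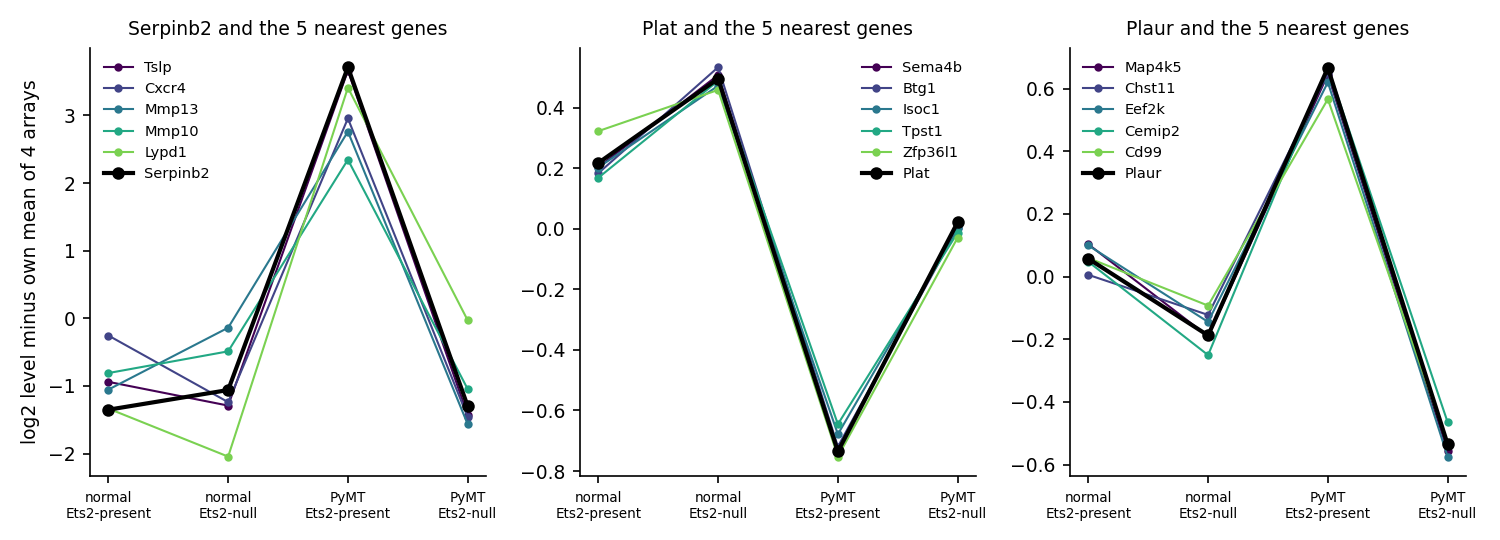
Log2 level minus the gene's own mean over the 4 arrays (vertical, with a different scale in each panel) in the 4 arrays (horizontal) for Serpinb2, Plat and Plaur (black) and the 5 kept genes nearest to each (coloured). Serpinb2 and its neighbours peak in the PyMT Ets2-present array, Plaur and its neighbours peak there too within a range of 1.20, and Plat and its neighbours are lowest there. The neighbours were chosen for this likeness, so the shared shape is no separate result.

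The other inhibitors of plasminogen activators analysed here did not share the profile of Serpinb2. Serpini1, neuroserpin, which acts on tissue-type activator, read 3.82 with and 4.89 without Ets2 in normal fibroblasts, and 6.09 with and 6.38 without it in PyMT fibroblasts. It was thus higher with the oncogene both with Ets2 (2.27) and without it (1.49), and in PyMT fibroblasts the Ets2 difference was 0.30. Serpinb6a was high in all arrays, between 10.94 and 11.61. Serpina5 was low in all 4. Of the 4 kept genes of this list, 1 (Serpinb2) was at least 2-fold lower and 0 higher in PyMT fibroblasts without Ets2. Among all kept genes these shares were 7.77% and 7.64%, and they stand beside the counts of this comparison in each list below.

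Next to Serpinb2 on chromosome 1 lie further Serpinb genes, and those measured were under the low level in most or all arrays. Serpinb8 read 3.49 with and 4.97 without Ets2 in normal fibroblasts, and 4.04 with and 3.58 without it in PyMT fibroblasts. Serpinb11 read 4.09, 2.78, 4.07 and 4.87 in the same order. Each was above the low level in 1 array only, and not in the PyMT Ets2-present one, so the filter set where its highest level lay. The adjoining Serpinb7, and Serpinb5 of the same cluster, were low in all arrays. Serpinb5 had its highest value, 4.12, in the PyMT Ets2-present array, still under the low level. Of 3 kept genes of this list, Serpinb2 was the 1 at least 2-fold lower in PyMT fibroblasts without Ets2, and 0 were higher.

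Plasminogen is made mainly in the liver, and its gene Plg was low in all 4 arrays. Of its receptors on the cell, Anxa2 (12.34 to 12.72) and Plgrkt (8.66 to 9.17) had nearly level signals. S100a10, the partner of Anxa2, read 11.30 with and 11.36 without Ets2 in normal fibroblasts, and 10.13 with and 10.91 without it in PyMT fibroblasts. It was lowest in the array where Serpinb2 was highest, as Plat was, with a PyMT difference of -1.17 where Ets2 was present. In PyMT fibroblasts without Ets2, 3 of 3 kept receptors were higher, none of them by 2-fold.

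The inhibitors of plasmin Serpinf2, A2m and Pzp were low in all arrays. In PyMT fibroblasts 0 of the 5 kept genes for plasmin inhibition and clearance were 2-fold apart without Ets2 in either direction. Serping1, the C1 inhibitor, was higher with the oncogene both with Ets2 (1.89) and without it (2.01). Mrc2, the collagen receptor that associates with uPAR, was 1.43 higher with the oncogene in Ets2-null and 0.58 higher in Ets2-present fibroblasts. Among the 7 kept partners of uPAR, mostly integrins, 0 were 2-fold apart in any of the 4 differences, and Itga5 (-0.76) was the lowest without Ets2 in PyMT fibroblasts.

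Among proteins of the uPAR and Ly6 family, Lypd1 came closest to Serpinb2. It read 3.62 with and 2.91 without Ets2 in normal fibroblasts, and 8.37 with and 4.93 without it in PyMT fibroblasts. Unlike Serpinb2, it was also higher with the oncogene where Ets2 was absent (2.02), although this starts from a low level. The Ets2 difference of Lypd1 in PyMT fibroblasts was -3.44. Pinlyp was 1.23 higher there, at 4.93 against a low 3.70, and Ly6d was 1.21 lower with the oncogene (-1.21) where Ets2 was present. Of 5 kept genes, Plaur included, 2 were at least 2-fold lower and 1 higher in PyMT fibroblasts without Ets2, with a median of -0.77 against 0.02 over all kept genes. Over all 9 measured genes of the list, low ones included, the median was -0.11.

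Targets of plasmin and urokinase went in both directions. Vegfc, a lymphatic growth factor that plasmin can process, read 7.59 with and 7.87 without Ets2 in normal fibroblasts, and 8.65 with and 7.17 without it in PyMT fibroblasts, and was 1.48 lower (-1.48) without Ets2 in PyMT fibroblasts. Tgfb1, whose latent form plasmin can release, was 2.65 lower there (-2.65) but above the low level only in the PyMT Ets2-present array. Hgf, which urokinase-like proteases activate, was 1.68 higher, at 7.60 against 5.92. Ltbp1, a carrier of latent TGF-beta, was lower with the oncogene with (-1.62) and without Ets2 (-1.88). Bdnf was 1.01 and 1.07 higher in the same comparisons. Of 7 kept targets, 2 were lower and 1 higher by 2-fold without Ets2 in PyMT fibroblasts.

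Of the coagulation genes, which act beside the plasmin system at the cell surface, F3 (tissue factor), Tfpi, Thbd and F2r had differences under 2-fold throughout. Tfpi2, an inhibitor of plasmin and of tissue factor, read 8.26 with and 8.04 without Ets2 in normal fibroblasts, and 10.06 with and 8.96 without it in PyMT fibroblasts. It was 1.10 lower without Ets2 in PyMT fibroblasts (-1.10) and 1.80 higher with the oncogene where Ets2 was present, at levels far from the low mark. F10 was 1.22 lower (-1.22) in PyMT and 1.44 higher in normal fibroblasts without Ets2, in both cases between a level above the low mark and one under it. In all, 2 of 8 kept genes were lower and 0 higher by 2-fold without Ets2 in PyMT fibroblasts. Of 5 kept trypsin-like proteases and their inhibitors, 0 were lower and 1 higher: St14 (matriptase), at 6.02 against a low 4.09. Spint2, an inhibitor of such proteases, was 1.22 higher with the oncogene in Ets2-null fibroblasts.

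ETS and AP-1 factors are known regulators of the genes for urokinase and its receptor. Fosl1, an AP-1 subunit, read 6.73 with and 6.36 without Ets2 in normal fibroblasts, and 7.69 with and 5.86 without it in PyMT fibroblasts, the same order of arrays as Plaur. It was the 1 gene of the 19 kept in this list that was at least 2-fold lower without Ets2 in PyMT fibroblasts (-1.83), and 0 were higher. Fos read 10.20 with and 9.19 without Ets2 in normal fibroblasts, a difference just over 2-fold. In the same comparison Etv4 was 1.49 lower (-1.49) and Fosl2 1.06 higher, both with a high value only just above 4.63. Junb was 1.28 lower (-1.28) with the oncogene where Ets2 was present. Jun (10.45 to 11.04) and Ets1 (7.47 to 7.86) stayed within narrow ranges.

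Over these lists together, members left out, 61 of 96 measured genes were kept. Without Ets2, 6 of 61 were at least 2-fold lower and 3 higher in PyMT fibroblasts (9.84% and 4.92%), beside the 7.77% and 7.64% of all kept genes given above. In normal fibroblasts the counts were 3 lower and 4 higher (4.92% and 6.56%, against 2.41% and 3.02%). With the oncogene they were 5 lower and 8 higher where Ets2 was present (8.20% and 13.1%, against 6.2% and 5.42%), and 4 lower and 9 higher where it was not (6.56% and 14.8%, against 11.2% and 9.69%). Of the 23 list genes at least 2-fold apart in any of these, 12 had an array under the low level, so that the size of their difference is less certain.

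**Figure D4:**
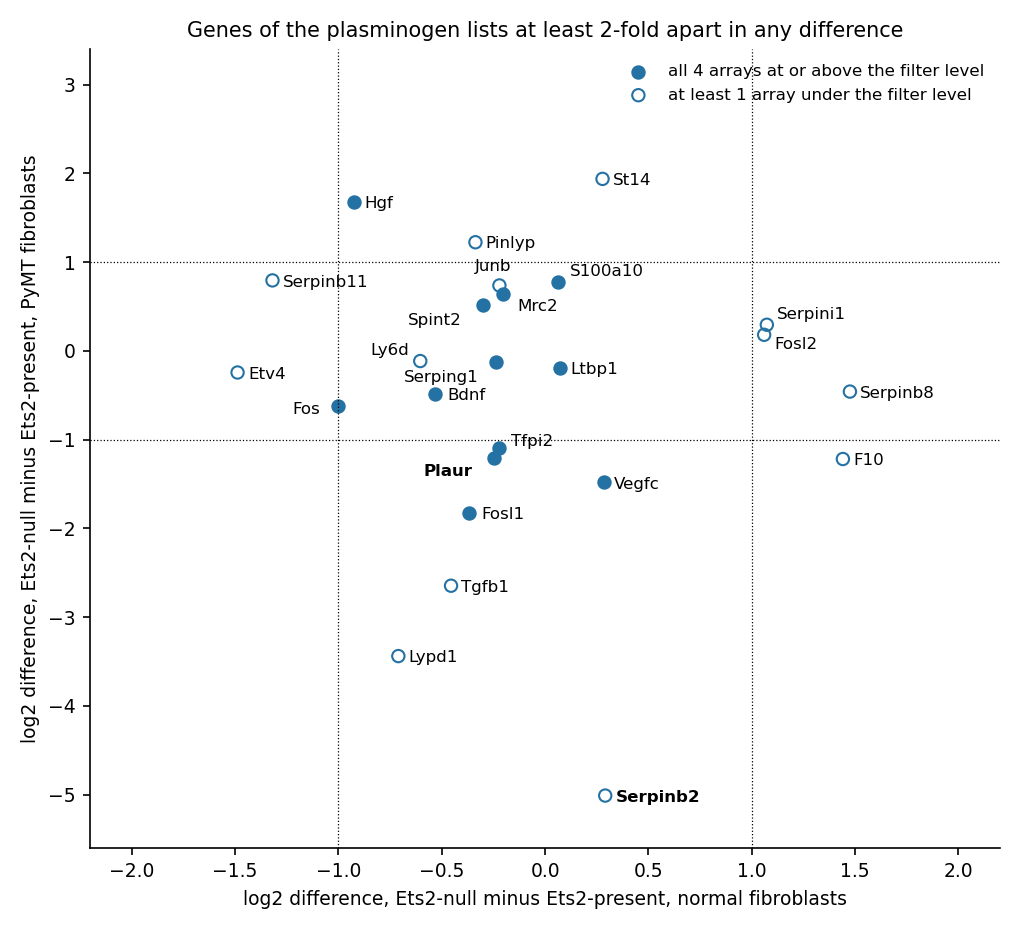
Log2 level without Ets2 minus that with it, in normal (horizontal) and PyMT fibroblasts (vertical), for Serpinb2, Plaur (bold) and the list genes at least 2-fold apart in any of the 4 comparisons, 1 array per group. Open circles have at least 1 array under the low level and dotted lines mark 2-fold. On the vertical axis Serpinb2 was at -5.01, Lypd1 at -3.44 and Tgfb1 at -2.65. Each had an array under the low level, so these sizes are not ranked.

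Macrophages are known to make Serpinb2 and Plaur, and their markers also differed between the arrays. In these cultures fewer cells of a type and less RNA per cell cannot be told apart. Of 18 macrophage markers, 14 were kept, and 10 of these 14 (71.4%) had their highest level in the PyMT Ets2-present array, as did 22.8% of all kept genes. Adgre1 and Mrc1 were kept only through that array, so their place among the 10 was set by the filter. It also set their direction in the counts that follow, which use that array. Without Ets2, 13 of 14 were lower in PyMT fibroblasts, 7 of them by 2-fold and 0 higher by 2-fold, with a median of -0.98, where 7.77% of all kept genes were 2-fold lower. With the oncogene, 13 of 14 were higher where Ets2 was present, 10 of them by 2-fold, where 5.42% of all kept genes were 2-fold higher. The summed linear level of all 18 was 994 with and 964 without Ets2 in normal fibroblasts, and 2838 with and 1961 without it in PyMT fibroblasts. Adgre1 read 6.17 in the PyMT Ets2-present array and 4.27 to 4.52 in the rest, and Csf1r read 8.12 there and 6.19 to 6.95 elsewhere. The Ets2 differences in PyMT fibroblasts ran from -3.16 for Lcp1 and -2.28 for Msr1, through -1.93 for Csf1r and -1.65 for Adgre1, to -0.13 for Lyz1, -0.04 for Lyz2 and 0.59 for Ptprc. Itgam, Fcgr1, C1qa and C1qc were low in all 4 arrays and went the other way. Their Ets2 differences in PyMT fibroblasts were 0.61, 0.55, 0.70 and 0.49, between levels under the low mark. The part of macrophage RNA in the levels of Serpinb2 and Plaur was not tested.

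**Figure D5:**
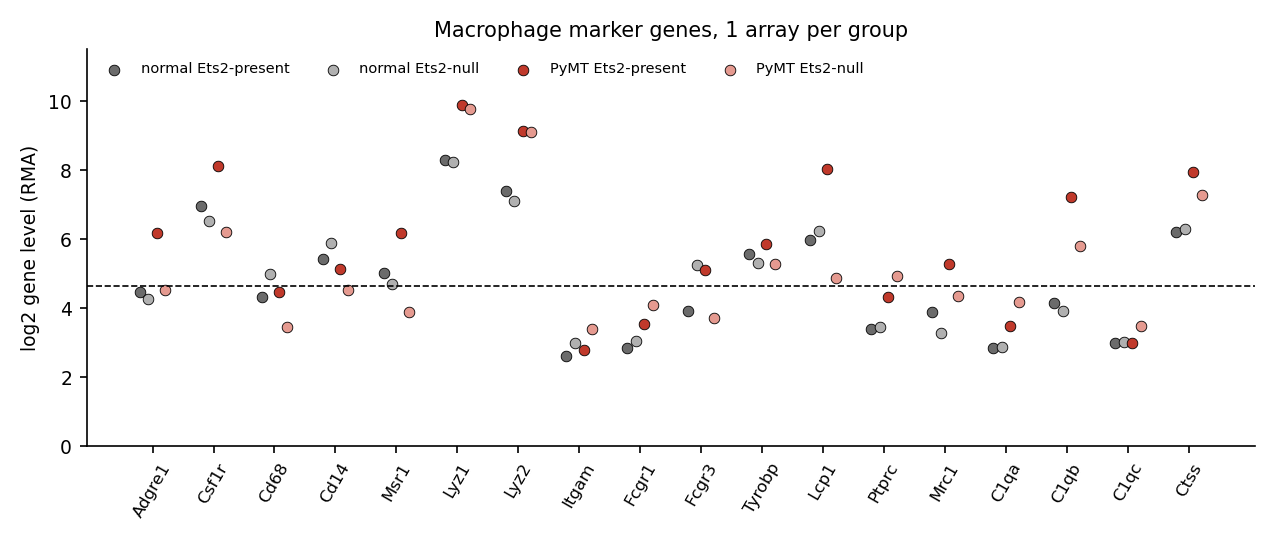
Log2 level (vertical) of the 18 macrophage marker genes (horizontal) in the 4 arrays, 1 point per array; the dashed line is the low level of 4.63. The PyMT Ets2-present array is highest for 10 of the 14 kept markers, with Lcp1 and Msr1 the farthest above the PyMT Ets2-null array. Of these 10, Adgre1 and Mrc1 were kept only through the PyMT Ets2-present array. Itgam, Fcgr1, C1qa and C1qc, low in all arrays, are highest in the PyMT Ets2-null array.

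Of the other marker lists, the granulocyte genes were low in every array for all 5 measured. For mast cells and basophils 6 of 8 were low throughout, among them Kit and Cpa3. Mcpt8, a basophil protease, read 7.27 with and 6.09 without Ets2 in normal fibroblasts, and 8.64 with and 4.49 without it in PyMT fibroblasts, highest where Serpinb2 was highest, and in that array it made up most of the list's summed linear level of 465. Endothelial sums ran from 149 to 221 and epithelial sums from 206 to 377, without a peak in that array. Pericyte and smooth muscle sums ran from 8681 to 10963, highest in the PyMT Ets2-null array, and fibroblast sums from 41541 to 54330, lowest in the PyMT Ets2-present array. Whether any of these cell types bears on the members' levels was not tested.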

How the data were processed

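Total RNA of cultured mammary fibroblasts was measured on Affymetrix mouse arrays, 1 per group. Values in the deposited table are log2 levels per probe set, which the authors computed with RMA (version not given), which corrects background, normalizes between arrays and summarizes the probes of a set. This pulls arrays to a common distribution and leaves weak signals compressed near background. Scanner files and detection calls were not used here, and no genome build was given for the array. The number of arrays limits the precision.

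Genes were named by the platform annotation. All 5 member probe sets matched the mouse RefSeq table by Entrez ID. Of several probe sets of a gene, that with the highest mean was used, and the gene was kept if its highest value reached the 40th percentile of the table (4.63). Differences and counts at 2-fold (log2 difference of 1) were taken with pandas 2.3.3 under Python 3.11.15 and tested on simulated data. With 1 array per group, no test was made. Members and the 10 gene and 7 marker lists were chosen with earlier results of these data known. Named are the members, list genes at least 2-fold apart in any of the 4 differences, and the 5 genes nearest to each kept member. Others (flat or low list genes, markers and neighbours) were named after their values were seen. Alternatives were cyclic loess (limma 3.58.1, R 4.3.3), median centring, raising low values, averaging probe sets, and other filters.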

Additional observations from a re-analysis of the deposited data

Results flagged for a closer look

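The results below moved in opposite directions in the 2 backgrounds under the same contrast. With 1 array per group the difference between backgrounds was not tested.

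Serpinb2 had an Ets2 difference of 0.29 in normal and -5.01 in PyMT fibroblasts, and a PyMT difference of 5.06 with Ets2 and -0.24 without it. The small values lie between arrays under the low level, so what stands out is the single high array. Plaur, at clear levels in all arrays, had a PyMT difference of 0.61 with Ets2 and -0.35 without it.

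Plau was low throughout. By the probe set 1422138_at its Ets2 difference was -1.43 in normal and 0.94 in PyMT fibroblasts, and its PyMT difference -1.70 with Ets2 and 0.66 without it. By 1422139_at the PyMT difference was 0.36 with Ets2 and -0.17 without it.

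Of the list genes at least 2-fold apart both ways, Tgfb1 had a PyMT difference of 1.11 with Ets2 and -1.08 without it. It was above the low level in the PyMT Ets2-present array only, so the -1.08 lies between low levels. F10 had an Ets2 difference of 1.44 in normal and -1.22 in PyMT fibroblasts, and a PyMT difference of 1.21 with Ets2 and -1.45 without it. Each of these F10 differences lies between a level above the low mark and one under it.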

How the results depend on the processing

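Under cyclic loess and median centring all 20 member differences, and all list medians and shares of genes, moved by less than the stand-in spread (1.5 times for shares). With low values raised to 4.63, Serpinb2 came to -4.24 for Ets2 loss in PyMT, 4.24 for PyMT with Ets2 and -4.24 for the subtraction, and Plau to 0 for Ets2 loss in normal and in PyMT fibroblasts. With the mean of its probe sets, Plau was -0.072 for Ets2 loss in PyMT, -0.67 for PyMT with Ets2 and 0.92 for the subtraction. The share of kept genes at least 2-fold apart depended on low values. With these raised, it was 1.20% lower and 1.65% higher for Ets2 loss in normal fibroblasts, and on the higher side 4.33% for Ets2 loss in PyMT, 6.02% for PyMT without Ets2 and 6.68% for the subtraction. With the filter at the 60th percentile (6.78), it was 0.97% lower and 1.35% higher for Ets2 loss in normal fibroblasts, and on the higher side 3.74% for Ets2 loss in PyMT, 3.34% for PyMT with Ets2, 5.35% for PyMT without Ets2 and 5.60% for the subtraction. Raised low values brought the median of the activator inhibitors to 0.13 (Ets2 loss, normal), 0.73 (PyMT with Ets2) and -0.15 (subtraction), and that of the chromosome 1 Serpinb genes to 0 (PyMT with Ets2) and -0.33 (subtraction). With no filter, medians were 0.55 for the activator inhibitors and -0.042 for trypsin-like proteases (PyMT with Ets2), and 0.49 for the uPAR and Ly6 genes and -0.65 for the chromosome 1 Serpinb genes (subtraction). No paired analysis was possible because each group has 1 array. Signal over background limits Serpinb2 to a bound in 3 arrays and Plau in all 4.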
